A study of Mus musculus with 4 samples.

Results

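The cells described here are the heart macrophages that carry the genes of long-lived tissue macrophages: Timd4, Lyve1, Folr2, Cd163, Vsig4, Ccl24, Cbr2 and Fcna. A cell was counted as resident when the 3 complement C1q genes C1qa, C1qb and C1qc together reached 10 or more UMIs (unique molecules of RNA) per 10000 and at least 3 of those 8 markers had a UMI. The rule found 3265 resident macrophages among 17312 cells within the filters, of which 13935 passed the C1q condition. The other 10670 C1q-positive cells serve below for comparison.

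Hearts came from adult mice, 5 pooled per group and of both sexes, and each group gave 1 library of 3′ single-cell RNA sequencing. Mice received carboplatin, a platinum drug that damages DNA, at 45 mg/kg into the peritoneum, or PBS, 2 times a week for 2 weeks. All mice then recovered for 4 weeks and carried a minipump for 7 days, filled with saline or with angiotensin II at 1.5 mg/kg per day and PE at 50 mg/kg per day (AngII/PE). The sort took heart phagocytes that were CD64+, CD45+, CD11b+, Ly6G- and Ly6C low, and 10000 cells were loaded per group. Values below are in the order PBS with saline, then carboplatin with saline, then PBS and lastly carboplatin with AngII/PE. With 1 library a group there is no replicate check and no test between groups. All intervals are exact 95% intervals unless said otherwise, and they cover counting error alone.

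Resident macrophages of the heart settle in the tissue in early life and renew themselves there with little input from blood. They clear dying cells and debris, take up iron and haem, and line vessels. TIM-4, the product of Timd4, binds phosphatidylserine on dying cells, and LYVE-1 binds hyaluronan. Folr2 encodes a folate receptor, Cd163 the scavenger receptor for haemoglobin bound to haptoglobin, and Vsig4 a receptor for complement C3 fragments. Ccl24 encodes a chemokine that attracts eosinophils, Cbr2 a carbonyl reductase and Fcna ficolin A, a lectin of the complement system. Macrophages that arise later from blood monocytes often carry the chemokine receptor Ccr2 and much MHC class II.

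On mm10, Timd4 lies on chromosome 11 (46810800 to 46844332, plus strand), Cd163 on chromosome 6 (124304656 to 124330527, plus), Folr2 on chromosome 7 (101839988 to 101857194, minus) and Cbr2 on chromosome 11 (120729489 to 120732114, minus). Lyve1 lies on chromosome 7 (110850607 to 110863239, minus), Vsig4 on chromosome X (96247203 to 96293438, minus), Ccl24 on chromosome 5 (135569937 to 135573049, minus) and Fcna on chromosome 2 (25624666 to 25628030, minus). The promoters of 4 of them are shown because their levels moved apart in resident cells, which these markers helped to choose. There Timd4 and Cd163 were far lower after carboplatin, and Folr2 and Cbr2 were not. Over all C1q-positive cells, Folr2 and Cbr2 after carboplatin were at 0.722 and 0.774 times their PBS level under saline. Under AngII/PE they were at 1.95 and 1.47 times. Each sequence comes from RefSeq (GRCm38.p6), runs 5′ to 3′ on the gene's strand, and spans 250 bases before the start to 50 after it. Capitals mark TGCTGA, the core of the site bound by MAF factors, and GAGGAA, a site of the ETS family that includes PU.1, searched on both strands.
Timd4, chr11:46810549-46810848: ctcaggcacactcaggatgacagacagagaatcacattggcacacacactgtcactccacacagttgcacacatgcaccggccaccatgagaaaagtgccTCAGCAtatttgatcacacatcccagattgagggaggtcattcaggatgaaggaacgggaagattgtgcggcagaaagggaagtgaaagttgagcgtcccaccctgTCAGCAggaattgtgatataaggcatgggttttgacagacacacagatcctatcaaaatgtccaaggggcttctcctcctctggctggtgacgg
Cd163, chr6:124304401-124304700: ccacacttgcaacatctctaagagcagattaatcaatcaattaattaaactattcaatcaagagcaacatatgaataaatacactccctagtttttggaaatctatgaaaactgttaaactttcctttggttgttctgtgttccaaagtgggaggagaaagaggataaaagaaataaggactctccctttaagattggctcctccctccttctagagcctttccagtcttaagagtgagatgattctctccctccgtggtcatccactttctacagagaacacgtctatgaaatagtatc
Folr2, chr7:101857141-101857440: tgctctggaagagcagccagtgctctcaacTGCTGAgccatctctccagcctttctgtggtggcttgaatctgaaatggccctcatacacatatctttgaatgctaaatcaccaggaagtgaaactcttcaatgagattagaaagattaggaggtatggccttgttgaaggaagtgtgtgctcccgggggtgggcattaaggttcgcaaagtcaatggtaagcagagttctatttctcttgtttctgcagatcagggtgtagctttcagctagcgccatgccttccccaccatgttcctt
Cbr2, chr11:120731972-120732271: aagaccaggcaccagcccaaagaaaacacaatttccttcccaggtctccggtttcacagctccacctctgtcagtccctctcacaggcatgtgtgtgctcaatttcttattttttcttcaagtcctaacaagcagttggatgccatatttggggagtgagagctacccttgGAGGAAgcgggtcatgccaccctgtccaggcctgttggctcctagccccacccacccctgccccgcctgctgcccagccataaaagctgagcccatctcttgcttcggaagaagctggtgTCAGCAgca
Timd4 held 2 matches of TGCTGA, Folr2 1, and Cbr2 1 match of each motif. Cd163 held neither. Vsig4 held 1 and 2 matches, and Fcna 2 and 4. Among 32851 RefSeq promoters of the same length, 19.5% held TGCTGA and 28.3% held GAGGAA, so these matches are common letters in such windows and say nothing by themselves about binding. Lyve1 and Ccl24 had no entry.

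Resident macrophages numbered 1670, 700, 269 and 626. They were 51.4% (49.6 to 53.1) of C1q-positive cells in the PBS saline library, 29.2% (27.4 to 31.0) in the carboplatin saline library, 8.52% (7.57 to 9.55) in the PBS AngII/PE library and 12.2% (11.3 to 13.1) in the carboplatin AngII/PE library. The PBS saline library was thus the highest and both AngII/PE libraries the lowest. A cell with more UMIs has more chances to show a marker, so the rule was also applied after each cell was thinned to a fixed number of UMIs. At 5000 UMIs the shares were 48.9%, 24.3%, 5.83% and 7.60%, and at 2000 UMIs 28.4%, 9.64%, 3.22% and 2.80%. Thinning to 2000 left out 330, 362, 144 and 199 shallower cells of all kinds and kept 3116, 2261, 3108 and 5028 C1q-positive ones.

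Under saline the resident share after carboplatin was 0.568 times (0.529 to 0.610, log-scale interval) that after PBS, and 0.340 times (0.296 to 0.390) at 2000 UMIs. After PBS, the share under AngII/PE was 0.166 times (0.147 to 0.187) that under saline, and after carboplatin 0.418 times (0.380 to 0.461). Both stayed well under 1 at 2000 UMIs, at 0.113 and 0.291. Under AngII/PE the carboplatin share was 1.43 times (1.25 to 1.64) the PBS share as counted, but 0.872 times (0.677 to 1.12) at 2000 UMIs, so no direction is read there. Sorting and loading the same number of cells fixes the total, so a share says nothing about the number of cells per heart.

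**Figure D1:**
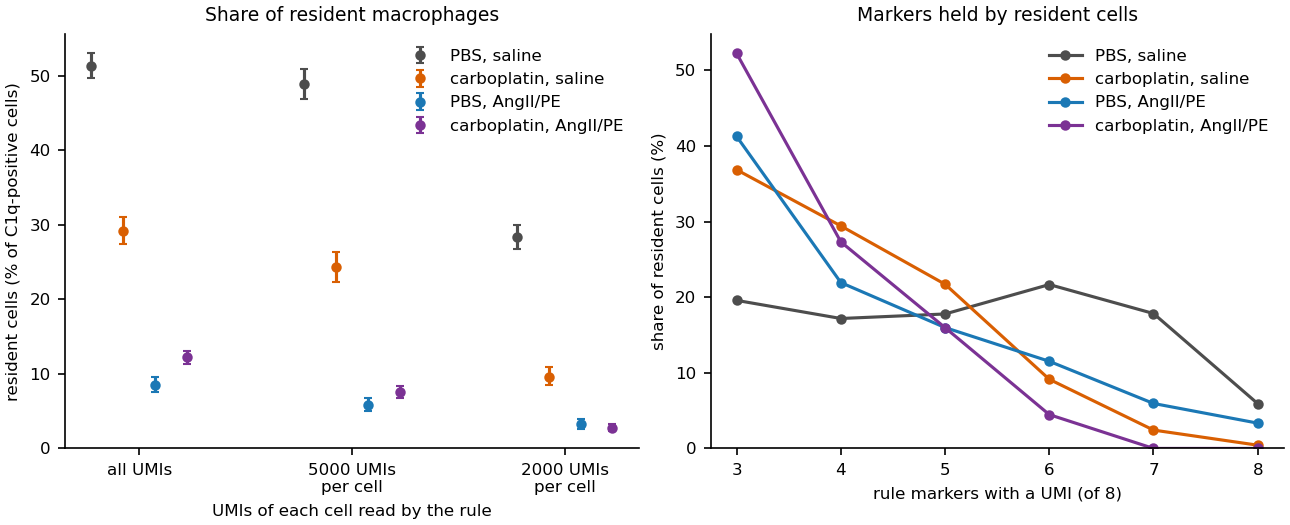
Left: resident macrophages as a percentage of C1q-positive cells in each library, with all UMIs and after thinning each cell to 5000 and 2000 UMIs; bars on the points are exact 95% intervals. Right: the number of the 8 markers held by each resident cell, as a percentage of resident cells. The PBS saline library is highest in all 3 series (51.4%, 48.9% and 28.4%), and its resident cells hold the most markers.

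Resident cells were deeply covered. Their median was 13393, 16714, 15757 and 16284 UMIs and 3880, 4334, 4370 and 4416.5 genes, against 8957, 10334, 12443 and 12214.5 UMIs in the other C1q-positive cells. The summed resident RNA came to 23189217, 11738345, 4302557 and 10495567 UMIs, so the PBS AngII/PE library, with 269 cells, is the least precise. Mitochondrial shares had medians of 2.93% to 3.72%. No resident barcode occurred in more than 1 library, and 34 of all kept barcodes did. The macrophage genes Adgre1, Csf1r and Fcgr1, the last encoding the sorted CD64, were present in resident cells at 601 to 809, 893 to 1141 and 144 to 236 CPM (UMIs per 1000000 UMIs of those cells), which fits a macrophage label.

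RNA of other cells was low but present. Summed marker levels in resident cells were 391, 479, 123 and 46.2 CPM for 7 B cell genes, 115 to 140 CPM for 8 cardiomyocyte genes, 156 to 292 CPM for 7 fibroblast genes and 91.2 to 156 CPM for 12 endothelial genes. The 8 T and NK cell genes came to 0.232 to 3.32 CPM in all, and 7 of them were at 0 in the PBS AngII/PE library. The share of resident cells with at least 2 UMIs of each of 2 markers of another cell type was 15.1%, 20.0%, 15.2% and 14.7%. Calls from sex-linked genes gave 50.8%, 54.7%, 22.4% and 57.5% of called resident cells as female. The PBS AngII/PE cells thus came mostly from male mice. Called cells numbered 669, 329, 53 and 302 female and 649, 272, 184 and 223 male. UMIs of both Xist and Y-chromosome genes were found in 3.59%, 6.71%, 4.83% and 10.4% of resident cells, which got no call. In other C1q-positive cells this share was 2.09%, 4.24%, 5.19% and 7.15%. Whether such barcodes are single cells was not tested. The part of these mixes in the results was not tested beyond the values given beside them.

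The number of markers per resident cell differed between libraries. The mean was 5.19, 4.12, 4.29 and 3.73 of 8. Cells with 6 or more markers made up 45.4%, 12.0%, 20.8% and 4.47%, with the highest share in the PBS saline library. All 8 markers were found in 99, 3, 9 and 0 cells. Exactly 3 markers, just inside the rule, were held by 327, 258, 111 and 327 cells, which were 19.6%, 36.9%, 41.3% and 52.2% of resident cells. Exactly 2, just outside it, were held by 390, 365, 261 and 633 cells. The 3 treated libraries were thus weighted more to the lower end of the rule than the PBS saline library.

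Cells just inside and just outside the rule differed in the same direction in every library for F13a1. This gene, which encodes a clotting factor subunit made by tissue macrophages, stood at 1068, 1005, 1309 and 1153 CPM in cells with 2 markers and 1548, 1857, 1758 and 1794 CPM in cells with 3. Ccr2 stood at 200, 309, 147 and 171 CPM with 2 markers and 153, 255, 137 and 149 CPM with 3. F13a1 was thus higher just inside the rule, and Ccr2 slightly lower. Between the ends of the scale the levels were further apart. In the PBS saline library, Ccr2 was 357 CPM in cells with no marker and 51.6 CPM in cells with 6 to 8, and in the carboplatin saline library 499 and 174 CPM. The MHC class II chain H2-Aa went from 4599 to 846 CPM in the PBS AngII/PE library. Its gap differed between libraries. All resident cells held H2-Aa at 5903, 8061, 1095 and 1643 CPM, and the other C1q-positive cells at 8234, 8872, 3798 and 3217 CPM. The marker count thus ranks cells along a range, and the class is a stretch of that range. Depth rose along it too. Cells with no marker had medians of 5498, 7670, 11192 and 10512 UMIs, and cells with 6 markers 14290, 21379.5, 15629 and 17587. The levels were read at full depth, and the part of depth in this ranking was not tested.

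**Figure D2:**
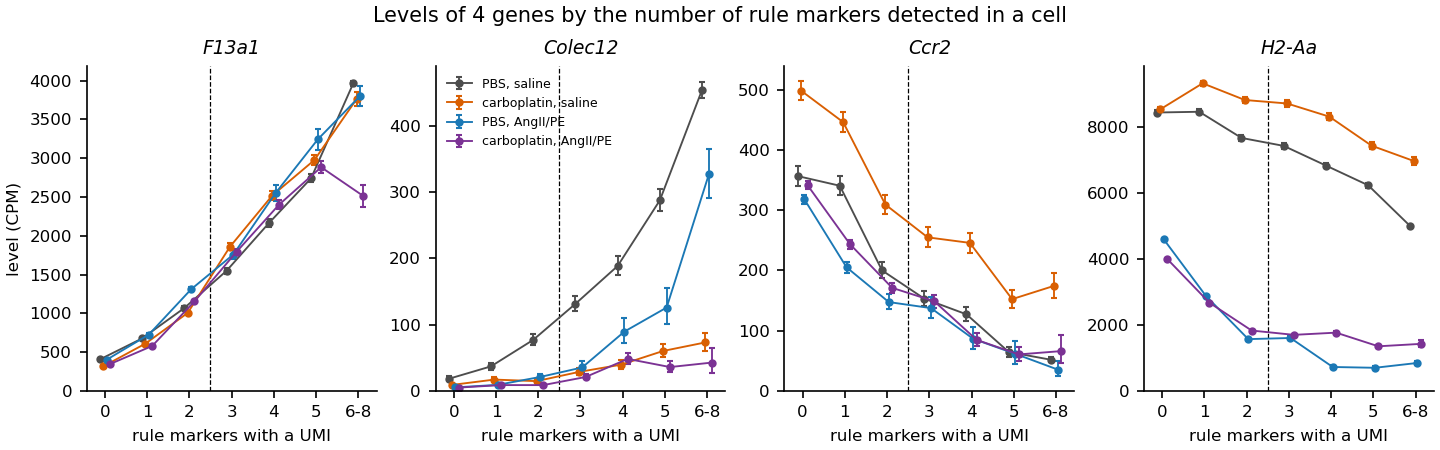
Levels of F13a1, Colec12, Ccr2 and H2-Aa (CPM) in C1q-positive cells grouped by how many of the 8 markers they hold, from 0 to 6 or more, 1 line per library; the dashed line between 2 and 3 markers is the rule's threshold. F13a1 and Colec12 are higher and Ccr2 is lower in cells with 6 or more markers than in cells with none. Colec12 in cells with 6 or more markers is 454 and 327 CPM after PBS against 73.0 and 42.7 CPM after carboplatin. Cells with 6 markers also have a higher median of UMIs than cells with none in every library.

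The 8 markers chose the cells, so their levels in resident cells are a description. Timd4 was at 159, 13.1, 30.2 and 0.667 CPM (3693, 154, 130 and 7 UMIs). It was high in the PBS saline library alone, and the carboplatin AngII/PE library held almost none. Cd163 was at 512, 90.0, 407 and 110 CPM, high in both PBS libraries and low in both carboplatin libraries. Vsig4, at 82.1, 30.4, 112 and 22.4 CPM, was also higher in both PBS libraries than in both carboplatin libraries, but highest in the PBS AngII/PE library.

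Lyve1 was at 519, 429, 236 and 184 CPM and Ccl24 at 274, 139, 93.9 and 90.3 CPM, both lower under AngII/PE. Folr2 was at 513, 525, 381 and 489 CPM, Cbr2 at 500, 525, 513 and 515 CPM and Fcna at 64.2, 50.7, 89.7 and 54.2 CPM. Most resident cells held both Folr2 and Cbr2, as given with the marker combinations, so their similar levels are set in part by the rule. Over all C1q-positive cells, Folr2 was at 320, 231, 60.4 and 118 CPM and Cbr2 at 325, 252, 79.4 and 117 CPM, both far lower under AngII/PE.

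**Figure D3:**
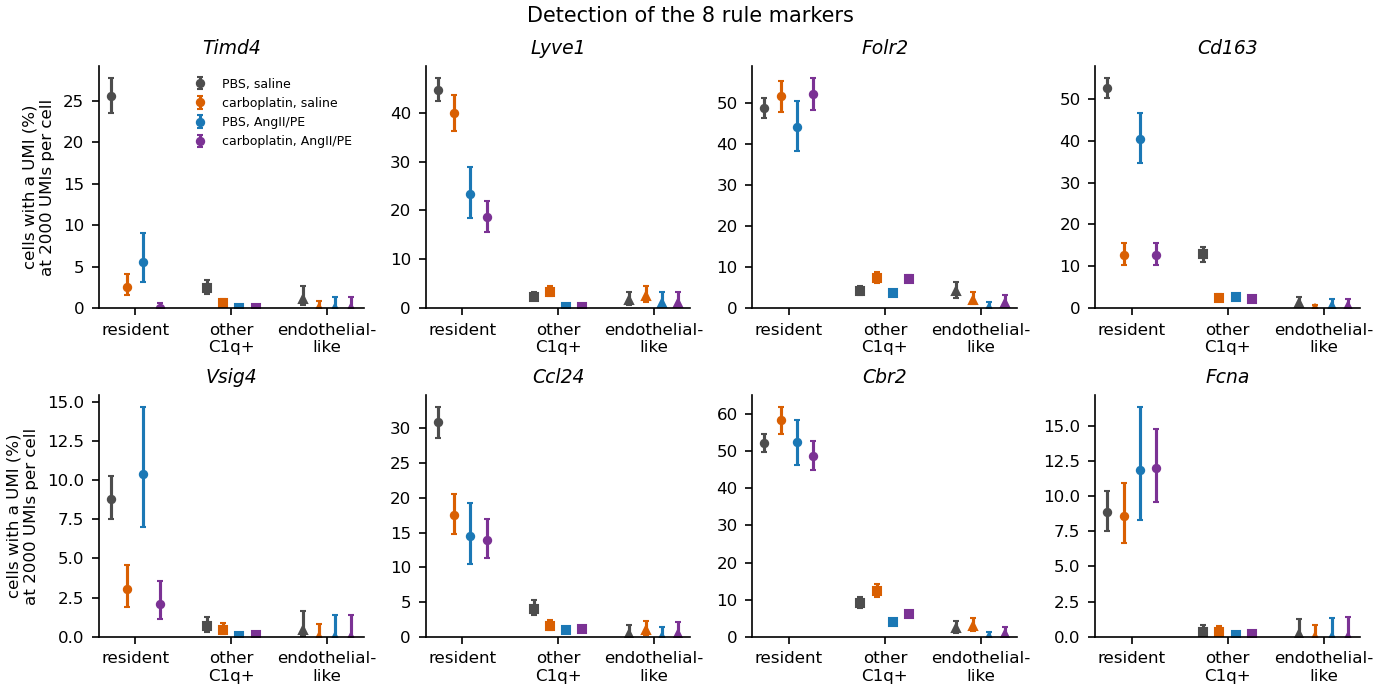
Percentage of cells with at least 1 UMI of each of the 8 markers after thinning to 2000 UMIs per cell, in resident, other C1q-positive and endothelial-like cells of each library; bars are exact 95% intervals. Timd4 and Cd163 are lower in resident cells of the carboplatin libraries (Timd4 2.59% and 0%, Cd163 12.8% in each), and Folr2 and Cbr2, which helped to choose most of the cells, are at 44.2% to 58.3%.

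The shares of cells gave the same picture at equal depth. At 2000 UMIs, Timd4 was found in 25.6%, 2.59%, 5.58% and 0% of resident cells, the last allowing up to 0.588%, and in 1.14%, 0%, 0% and 0% of endothelial-like cells, which should lack it. In each of the first 3 libraries the resident share was above that of endothelial-like cells. Since Timd4 helped to choose the resident cells, this is a description and no test. The same holds for the markers that follow. Cd163 was found in 52.7%, 12.8%, 40.5% and 12.8%, against at most 1.14% of endothelial-like cells. Lyve1 was found in 44.7%, 39.9%, 23.4% and 18.6% (endothelial-like 1.59%, 2.51%, 1.12% and 1.13%). Folr2 was found in 48.8%, 51.6%, 44.2% and 52.2% (endothelial-like at most 4.10%). Without thinning, Timd4 was found in 63.9%, 8.0%, 19.0% and 0.958% and Cd163 in 83.7%, 41.9%, 72.1% and 40.3%. Endothelial-like cells had medians of 6510, 7178, 10326 and 11122 UMIs.

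To read a marker in cells it did not help to choose, each was also measured in C1q-positive cells with at least 3 of the other 7 markers, a step added after the data were seen. Timd4 was then 13.4-fold lower after carboplatin than after PBS under saline (11.3 to 16.0; 159 against 11.9 CPM). Under AngII/PE it was 51.4-fold lower (23.0 to 143; 29.5 against 0.573 CPM). Under AngII/PE after PBS it was 5.41-fold lower than under saline (4.52 to 6.51). The 0.573 CPM rest on 6 UMIs. Over all C1q-positive cells, a reading also added after the data were seen, which no marker helped to choose and where the share of resident cells also counts, Timd4 was 15.6-fold lower after carboplatin under saline (13.5 to 18.1) and 9.96-fold lower under AngII/PE (6.32 to 16.4). There it was 29.9-fold lower under AngII/PE than under saline after PBS (25.2 to 35.8). In both sets of cells Timd4 was thus lower with either treatment and lowest with both, but the sizes depend on the cells read.

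Cd163 was 6.70-fold lower after carboplatin under saline (6.24 to 7.20; 534 against 79.7 CPM) and 5.23-fold lower under AngII/PE (4.78 to 5.72; 445 against 85.1 CPM). Between pumps the ratios of AngII/PE to saline were nearer 1, at 0.834 after PBS and 1.07 after carboplatin. Vsig4 was 2.67-fold lower after carboplatin under saline (2.37 to 3.00) and 5.52-fold lower under AngII/PE (4.68 to 6.52). Between pumps Vsig4 had ratios of AngII/PE to saline of 1.44 after PBS (1.30 to 1.59) and 0.694 after carboplatin (0.582 to 0.826), in opposite directions. Over all C1q-positive cells, Cd163 was 7.73-fold lower after carboplatin under saline and 2.06-fold lower under AngII/PE, and Vsig4 4.21-fold and 3.12-fold lower. There the ratios of AngII/PE to saline after PBS were 0.183 for Cd163 and 0.239 for Vsig4. Both genes were thus lower after carboplatin in either set of cells, whereas their difference between pumps depended on the set.

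Ccl24 after carboplatin was 0.506 times its PBS level under saline (0.478 to 0.536) and 0.757 times under AngII/PE (0.663 to 0.867), and Lyve1 0.824 and 0.745 times. Their ratios of AngII/PE to saline were 0.343 and 0.513 for Ccl24 and 0.448 and 0.405 for Lyve1. Lyve1 thus differed more by pump than by drug. Folr2 had ratios of carboplatin to PBS of 1.10 and 1.38 and Cbr2 of 1.09 and 0.998 (0.942 to 1.06). Fcna was 0.778 and 0.577 times its PBS level. Over all C1q-positive cells several of these ratios of carboplatin to PBS changed direction. Under AngII/PE, Ccl24 was then at 1.31 (1.19 to 1.45) and Lyve1 at 1.18 (1.10 to 1.27). Under saline, Folr2 was at 0.722 and Cbr2 at 0.774, and under AngII/PE at 1.95 and 1.47. Fcna was at 0.517 and 0.953 (0.841 to 1.08). For Ccl24, Lyve1, Folr2 and Cbr2 the direction after carboplatin thus depended on the cells read.

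Combinations of markers changed with these levels. Timd4, Lyve1 and Folr2 occurred together in 48.3%, 4.57%, 14.5% and 0.319% of resident cells. Cells with neither Timd4 nor Cd163 made up 6.77%, 54.1%, 23.0% and 59.1%. Folr2 and Cbr2 occurred together in 77.7%, 89.6%, 80.3% and 90.9%. The commonest exact set was Timd4, Lyve1, Folr2, Cd163, Ccl24 and Cbr2 in the PBS saline library (190 cells, 11.4%), but Lyve1, Folr2 and Cbr2 in the carboplatin saline library (99 cells, 14.1%). It was Folr2, Cd163 and Cbr2 in the PBS AngII/PE library (41 cells, 15.2%) and Folr2, Ccl24 and Cbr2 in the carboplatin AngII/PE library (90 cells, 14.4%). These counts are at full depth and carry its effect.

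Within the resident cells, those with a Timd4 UMI differed from those without. A cell with Timd4 needed fewer of the other markers to pass the rule. Ratios of Lyve1, Vsig4 and Cd163 between these cells are thus set in part by the rule. In the PBS saline library, 1067 cells had Timd4 and 603 did not, at median depths of 13860 and 12781 UMIs. Lyve1 was 2.35-fold higher in the Timd4 cells (647 against 275 CPM), Vsig4 2.90-fold (106 against 36.6 CPM) and complement C4b 2.25-fold (196 against 87.1 CPM), while Ccr2 was 3.10-fold lower (2.82 to 3.40; 47.8 against 148 CPM). The mannose receptor Mrc1 had a ratio of 1.04. In the PBS AngII/PE library, 51 cells had Timd4. In them Lyve1 was at 703 against 131 CPM, the scavenger lectin Colec12 at 336 against 77.2 CPM and Ccr2 3.34-fold lower (31.5 against 105 CPM). The elastase Mmp12 (42.8 against 3.42 CPM) and the lysozyme gene Lyz1 (74.3 against 12.3 CPM) were also higher in them. Lyz1 went the other way in the PBS saline library (41.2 against 84.4 CPM). H2-Aa was at 1309 against 1047 CPM under AngII/PE and 5581 against 6516 CPM under saline.

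The 56 Timd4 cells of the carboplatin saline library shared part of the profile of those in the PBS saline library. Vsig4 was 3.65-fold higher in them (90.8 against 24.9 CPM) and Cd163 1.97-fold (164 against 83.2 CPM), as both were higher in the Timd4 cells of the PBS saline library (Cd163 1.48-fold). Other genes differed from it. Lyve1 was at 390 CPM in them and 432 CPM in the 644 others, which had to hold more of the remaining markers to pass. That difference is thus set in part by the rule. Ccr2, which is not a rule marker, was 1.79-fold higher in the Timd4 cells (363 against 203 CPM). They were high in the chemokine Cxcl13 (261 against 5.48 CPM) and the lectin Cd207 (289 against 18.0 CPM), and Cd207 was also 2.37-fold higher in the Timd4 cells of the PBS saline library. With 6 Timd4 cells, the carboplatin AngII/PE library was not split.

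Resident cells were then compared with the other C1q-positive cells of the same library, and genes were named by their mean ratio over the 4 libraries. Since the rule chose the cells by their own RNA, this is a description. Of 8619, 8591, 8612 and 8513 genes that averaged 10 CPM or more, 4.32%, 3.63%, 5.14% and 3.49% were at least 1.5-fold higher in resident cells and 5.46%, 4.78%, 5.29% and 3.74% at least 1.5-fold lower. Ltc4s, which encodes leukotriene C4 synthase, led with a geometric mean of 8.98-fold (216, 191, 220 and 228 CPM against 18.1, 17.1, 29.3 and 35.1). Next came Colec12 (6.75-fold), the receptor Fgfr1 (5.77-fold), the monocyte-attracting chemokine Ccl8 (5.66-fold), Plekhg5 (5.35-fold), C4b (4.99-fold), Fxyd2 (4.79-fold), the iron exporter Slc40a1 (4.42-fold), F13a1 (4.30-fold) and Zbtb7c (3.95-fold). F13a1 reached the highest levels of these, 2192 to 3071 CPM in resident cells. Its log2 ratios were steady, at 1.97 to 2.15. Those of Zbtb7c were 0.73 and 0.76 in the saline libraries against 3.39 and 3.04 under AngII/PE. For Slc40a1 they were 2.36, 1.14, 3.01 and 2.06.

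Lower in resident cells were the elastase Mmp12 (8.18-fold; 12.0, 12.0, 10.7 and 6.10 CPM against 128, 161, 58.0 and 35.1), Tnip3 (6.48-fold), Sh2d1b1 (6.23-fold), Gpr141 (4.58-fold), Sirpb1c (4.25-fold), the cytokine Il1b (4.07-fold; 172, 120, 43.0 and 70.4 CPM against 595, 443, 290 and 224), Tmem119 (3.70-fold), Sirpb1b (3.47-fold), the kinase Fgr (3.42-fold) and Asb2 (3.26-fold). Sirpb1b and Sirpb1c are close copies whose reads the counting may have split. Summed over the class, the resident cells of every library were thus low in Mmp12 and Il1b beside their C1q-positive neighbours. Within the class, Mmp12 in the PBS AngII/PE library was at 42.8 CPM in cells with Timd4 and 3.42 CPM in those without.

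A list of resident macrophage genes outside the rule had 18 of 19, 16 of 18, 18 of 18 and 15 of 17 compared members at least 1.5-fold higher in resident cells, with median log2 ratios of 1.66, 1.46, 1.21 and 0.98. Iron and haem genes had 10 of 16, 8 of 16, 9 of 15 and 8 of 16, with medians of 0.57 to 0.68. MHC class II genes had medians of -0.66, -0.35, -1.73 and -0.91, and monocyte-derived genes -1.79, -1.25, -1.28 and -0.95. General macrophage genes lay at -0.01 to 0.14. Cell cycle genes had medians of -0.29 and -0.31 in the saline libraries but 0.66 and 0.56 in the AngII/PE libraries, where 7 of 14 and 8 of 17 were at least 1.5-fold higher in resident cells.

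The next comparison asked how resident cells differed after carboplatin, recovery and a saline pump. The clearest changes were losses. Cpne8, which encodes a calcium-dependent membrane-binding protein, was at 92.5 CPM after PBS and 6.13 CPM after carboplatin, 15.1-fold lower (11.9 to 19.3), and found in 45.2% and 4.86% of cells. Colec12 was at 330 and 45.4 CPM, 7.28-fold lower (6.66 to 7.96). Both genes were also lower in the other C1q-positive cells, by log2 ratios of -2.68 and -1.70. Higher after carboplatin was Ccr2, at 82.3 and 217 CPM, 2.63-fold (2.48 to 2.80), found in 13.8% and 39.3% of resident cells. Timd4 cells, which were 63.9% and 8.0% of resident cells, held Ccr2 at 47.8 and 363 CPM. In resident cells without Timd4 it was at 148 and 203 CPM, a smaller difference. The part of this mix of cells in the Ccr2 ratio was not tested.

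After carboplatin under saline, 33 of the 8546 genes with enough UMIs (0.386%) stood 2-fold or more above their PBS level and 84 (0.983%) 2-fold or more below it. Losses thus outnumbered gains. Also lower were Xlr (6.40-fold; 54.0 and 8.43 CPM), the cytoskeletal scaffold Ppp1r9a (4.78-fold; 98.1 and 20.5 CPM), Kctd16 (4.35-fold), Kcnip4 (4.35-fold), the secreted phospholipase Pla2g2d (4.28-fold; 66.8 and 15.6 CPM), the heparan sulphate sulphotransferase Hs3st3a1 (4.21-fold), the thyroid hormone receptor Thrb (4.02-fold; 76.5 and 19.0 CPM) and the peptide transporter Slc15a2 (4.00-fold). All 10 named genes were lower in resident cells called female and in those called male, from -1.14 to -4.14 on the log2 scale.

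Higher beside Ccr2 were the interferon-induced GTPases Gbp2b (3.49-fold, 2.93 to 4.15; 8.97 and 31.3 CPM) and Gbp2 (2.39-fold; 24.0 and 57.2 CPM), Mamdc2 (2.58-fold; 16.6 and 43.0 CPM), the oestrogen receptor Esr1 (2.45-fold; 28.8 and 70.8 CPM), Abcg3 (2.30-fold), the class I gene H2-Q6 (2.10-fold; 31.9 and 67.0 CPM), Olfm1 (1.97-fold), Nxpe5 (1.97-fold) and the lectin-like receptor Klra2 (1.95-fold). Gbp2 and Gbp2b, and H2-Q6 and its neighbours, are close copies, so the split of their reads is uncertain. In female- and male-called cells the log2 ratios were 1.54 and 1.41 for Ccr2, 1.03 and 4.29 for Gbp2b, and 0.74 and 2.40 for Esr1. The gain of Ccr2 was thus much alike in both, and those of Gbp2b and Esr1 were larger in male-called cells. In other C1q-positive cells, Ccr2 had a log2 ratio of 0.51. Endothelial-like cells held 24 and 86 UMIs of Ccr2, a log2 ratio of 1.61. Log2 ratios there were also raised for Mamdc2 (2.08; 26 and 129 UMIs), Esr1 (2.43; 3 and 19 UMIs) and Klra2 (1.54; 15 and 51 UMIs). For Gbp2 and Abcg3 they were -0.00 and -0.41. The part of free RNA in the gains of resident cells was not tested.

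**Figure D4:**
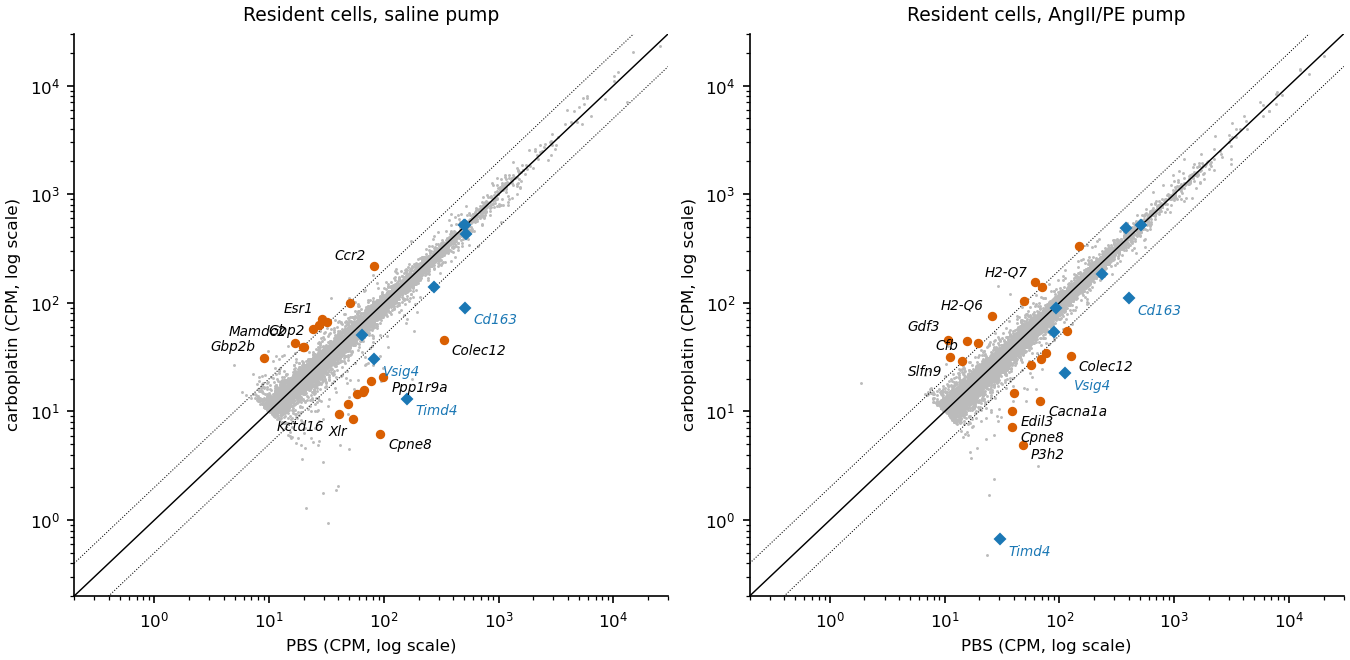
Levels in resident macrophages after PBS (horizontal) and after carboplatin (vertical), in CPM on log axes, under saline (left) and AngII/PE (right). Grey points are genes that average 10 CPM or more, orange points the named genes, blue diamonds the markers of the rule, and dotted lines 2-fold differences. Most genes lie between the lines; Cpne8, Colec12 and Timd4 lie far below them in both panels.

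Read by gene group under saline, where 1.68% of all compared genes passed 1.5-fold upward and 2.34% downward, the resident programme had none of 19 higher and 7 lower, at a median log2 ratio of -0.33. All compared genes had a median of -0.02. The 7 included Colec12 (-2.86), the endothelin receptor Ednrb (109 and 39.3 CPM), C4b (158 and 71.0 CPM) and the prostaglandin dehydrogenase Hpgd (657 and 333 CPM). Mrc1 (1974 and 1739 CPM), F13a1 (3071 and 2581 CPM) and Maf (983 and 1015 CPM) stayed within 1.5-fold. Summed over the class, the programme was therefore lower in part of its members. In the other C1q-positive cells its median was -0.16. Resident cells of the PBS saline library held C4b at 196 CPM with a Timd4 UMI and 87.1 CPM without, and Ednrb at 134 and 59.8 CPM. Colec12 in resident cells without Timd4 was at 221 CPM after PBS and 44.2 CPM after carboplatin. Timd4 was found in 63.9% and 8.0% of resident cells, and the part of this mix in the programme's ratios was not tested.

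Monocyte-derived genes had 3 of 4 higher (median 0.95): Ccr2, Ms4a4c (16.7 and 34.2 CPM) and the lysozyme gene Lyz1 (56.1 and 102 CPM). The other of the 4, Il1b, was at 172 and 120 CPM. The list's median was -0.29 when low genes were kept, since most of its members were near 0. MHC class II genes had 3 of 9 higher and none lower (median 0.47, other C1q-positive cells 0.17). H2-Ab1, a class II chain, was at 3904 and 5895 CPM, 1.51-fold higher (1.50 to 1.53), and the class II transactivator Ciita at 127 and 206 CPM, 1.63-fold (1.54 to 1.72). RNA of B cells, which also carry class II, summed to 391 and 479 CPM in these resident cells, and its part in these ratios was not tested.

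Other groups moved little under saline. Genes of the p53 response, which DNA damage induces, had none of 23 higher and 1 lower, at a median of -0.00, and Cdkn1a, its cell cycle inhibitor, was at 241 and 197 CPM. Efferocytosis and scavenging genes had a median of -0.07, with 1 of 20 lower, Colec12. Macrophage transcription factors had 2 of 22 lower (-0.22), Spic (25.1 and 14.8 CPM) and Tfec (33.3 and 20.0 CPM). Iron and haem genes had 2 of 16 lower (-0.27): Slc40a1, at 42.4 and 21.1 CPM, and Hpgd. Interferon genes had 2 of 22 higher (0.04), among them Irf7. Chemokine genes had 2 of 17 higher and 2 lower (0.02), with Cxcl9 at 11.4 and 32.4 CPM and Cxcl13 at 67.8 and 26.8 CPM.

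Cell cycle genes had 3 of 7 compared members higher (0.29), with Mki67 at 8.58 and 21.04 CPM. Of the complement genes 2 of 9 were higher and 2 lower (-0.00), with Cfb at 8.19 and 19.1 CPM. Growth factor genes had 1 of 13 higher, Gdf3 (4.92 and 26.9 CPM), and 3 lower (-0.25), among them Igf1 (413 and 267 CPM). Lipid-associated genes had 2 of 11 lower (-0.07), Apoe (13235 and 7111 CPM) and Lpl. Immediate-early and heat shock genes, which handling of tissue can raise, had a median of -0.36 in resident and -0.35 in other C1q-positive cells, with Fos at 1433 and 1006 CPM. Their part in the other ratios was not tested.

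The same comparison under AngII/PE shares no library with the one under saline. Here 24 of 8556 genes (0.281%) stood 2-fold or more above their PBS level after carboplatin, and 56 (0.655%) stood 2-fold or more below it. P3h2, which encodes a collagen prolyl hydroxylase, was at 47.6 CPM after PBS and 4.95 CPM after carboplatin, 9.62-fold lower (7.06 to 13.3). The calcium channel gene Cacna1a was at 68.1 and 12.4 CPM, 5.50-fold lower (4.46 to 6.81), Cpne8 at 38.8 and 7.15 CPM, 5.43-fold (4.11 to 7.23), and Colec12 at 125 and 32.2 CPM, 3.88-fold (3.38 to 4.46). Cpne8, Colec12 and Ppp1r9a (2.72-fold; 40.0 and 14.7 CPM) were thus among the 10 lowest named genes under both pumps.

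Also lower were Edil3 (3.84-fold; 38.8 and 10.1 CPM), whose product binds phosphatidylserine, the sulphotransferase Ust (2.25-fold), the inflammasome sensor Nlrp1b (2.24-fold; 76.9 and 34.4 CPM), Lilra5 (2.15-fold) and the transcriptional corepressor Cbfa2t3 (2.11-fold). The log2 ratio of Nlrp1b was -3.18 in female-called cells but -0.20 in male-called ones. The female value rests on 53 cells after PBS and 302 after carboplatin. The sex mix of these 2 libraries differed, with 22.4% and 57.5% of called resident cells female.

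Higher after carboplatin under AngII/PE were Gdf3, a TGF-beta family ligand, at 10.7 and 45.6 CPM (4.27-fold, 3.15 to 5.91), complement factor B Cfb (15.6 and 44.1 CPM, 2.83-fold, 2.19 to 3.72), Slfn9 (2.83-fold), the class I genes H2-Q6 (2.94-fold), H2-Q7 (2.49-fold; 61.8 and 154 CPM) and H2-T22 (2.09-fold), Spp1, which encodes osteopontin (2.24-fold, 2.06 to 2.44; 149 and 333 CPM), Gbp2 (2.20-fold), Slfn1 (2.05-fold) and the IgG receptor Fcgr4 (1.99-fold). Gdf3 and Cfb were higher in both female-called (1.59 and 1.58) and male-called cells (1.29 and 1.44). Gbp2 was 1.37 and -0.39 and Slfn9 0.17 and 2.07, so neither had 1 size in both. Class I genes are close copies here too.

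By count, interferon genes were the group with most members up, and by share MHC class II genes matched them. With 1.76% of all compared genes past 1.5-fold upward and 2.41% downward under AngII/PE, 9 of 24 were higher and none lower, at a median of 0.39 (other C1q-positive cells 0.35). Among them were the nucleic acid sensor Zbp1 (36.3 and 68.5 CPM), the transcription factor Irf7 (81.3 and 149 CPM), Bst2, which tethers viruses (219 and 385 CPM) and Isg15 (58.3 and 98.5 CPM). Female-called cells alone, 53 after PBS and 302 after carboplatin, gave a median of -0.12. The sign of the list thus rests on which cells are compared.

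MHC class II genes had 3 of 8 higher and none lower (0.43, other C1q-positive cells -0.24), with H2-Aa at 1095 and 1643 CPM, but the median was -0.31 in male-called cells alone. The resident programme had none of 18 higher and 3 lower (-0.14): Colec12, Ednrb (25.6 and 10.4 CPM) and C4b (131 and 85.9 CPM). Growth factor genes had 3 of 12 higher (0.17), Gdf3, Bmp2 (7.67 and 14.7 CPM) and Pdgfc (108 and 162 CPM). Chemokine genes had 3 of 18 higher and 1 lower (0.18), with Cxcl9 at 10.7 and 40.2 CPM and Ccl5 at 6.74 and 21.5 CPM.

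The p53 list had 1 of 23 higher and 1 lower (0.06), with Cdkn1a at 217 and 255 CPM. Cell cycle genes had 3 of 17 higher (0.38), but -0.10 in female-called cells. Iron and haem genes had none of 16 outside 1.5-fold (-0.01), and macrophage identity genes none of 12 (0.14). Efferocytosis genes had 2 of 20 lower (-0.12), transcription factors 1 of 22 (0.01), complement genes 1 higher and 1 lower of 9 (0.04), and lipid-associated genes 2 of 13 higher (0.21). Monocyte-derived genes had 1 of 6 higher (0.16), Il1b at 43.0 and 70.4 CPM, with Ccr2 at 91.6 and 111 CPM. Immediate-early genes had 1 of 24 higher (0.07), Atf3.

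The remaining comparisons set AngII/PE against saline, after PBS and after carboplatin, and each shares its libraries with the comparisons above. After PBS, 191 of 8608 genes (2.22%) stood 2-fold or more above their saline level under AngII/PE, and 240 (2.79%) 2-fold or more below it. Of 8560 after carboplatin, 194 (2.27%) were higher and 228 (2.66%) lower. More genes in resident cells thus differed at least 2-fold between pumps than between drugs.

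Retnla had the largest fold loss of the named genes under AngII/PE in both comparisons, and several MHC class II genes were lower as well. Retnla, which encodes a secreted resistin-like protein of alternatively activated macrophages, was at 456 and 0.465 CPM after PBS (10584 and 2 UMIs; a ratio of 982, 272 to 8109) and at 553 and 7.43 CPM after carboplatin (74.4-fold lower, 59.5 to 94.2). Endothelial-like cells held 245 and 0 UMIs of Retnla after PBS, so free RNA of this gene was present under saline, and its part in the ratio was not tested. H2-Aa was at 5903 and 1095 CPM after PBS, 5.39-fold lower (5.24 to 5.55), and at 8061 and 1643 CPM after carboplatin, 4.91-fold lower. H2-Eb1 was 5.46-fold and 5.12-fold lower, H2-Ab1 4.84-fold lower after carboplatin and Ciita 5.08-fold lower after carboplatin (206 and 40.6 CPM). The lectin Mgl2 was at 634 and 117 CPM after PBS and 747 and 117 CPM after carboplatin, 5.40-fold and 6.37-fold lower.

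After PBS, the gelatinase Mmp9 (28.6-fold, 13.8 to 71.2; 46.5 and 1.63 CPM), Chp2 (9.25-fold), Celf4 (7.61-fold), Kcnip4 (6.75-fold), Pla2g2d (6.53-fold) and the transferrin receptor Tfrc (5.57-fold; 69.9 and 12.6 CPM) were lower too. After carboplatin, Cacna1a was 25.3-fold lower (21.2 to 30.3; 313 and 12.4 CPM) and found in 92.0% and 9.27% of cells. P3h2 was 11.1-fold lower, Chp2 6.76-fold and Nlrp1b 4.75-fold. Cacna1a was high in both saline libraries, at 321 and 313 CPM, and low in both AngII/PE libraries.

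Spp1 had the largest gain, from 3.71 to 149 CPM after PBS (40.2-fold, 32.0 to 50.9) and from 11.6 to 333 CPM after carboplatin (28.8-fold, 24.2 to 34.4). A single cell held 14.0% of its UMIs after PBS. In female- and male-called cells the log2 ratios of Spp1 were 3.45 and 6.76 after PBS, and 5.49 and 4.77 after carboplatin. The gain was thus present in both, but its size after PBS was not alike. The female value after PBS rests on 53 cells under AngII/PE. The lysosomal protease Ctsd was at 304 and 1202 CPM after PBS (3.95-fold, 3.81 to 4.09) and 245 and 1562 CPM after carboplatin (6.37-fold). Trem2, a receptor for lipids, was at 127 and 476 CPM (3.76-fold) and at 136 and 644 CPM (4.72-fold). Both were found broadly, Ctsd in over 99% and Trem2 in 94.8% of resident cells under AngII/PE after PBS. Tmem119 was 8.13-fold and 7.64-fold higher and Fkbp5, which glucocorticoids induce, 3.75-fold and 5.00-fold.

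Other genes named as higher after PBS were Adam8 (9.95-fold), Apoc2 (5.32-fold), the condensin subunit Ncapg2 (4.62-fold), Nt5dc2 (3.91-fold) and St18 (3.74-fold). After carboplatin they were Syngr1 (14.7-fold), the clock output gene Dbp (6.62-fold), the lectin Clec4d (6.38-fold), Tspan4 (5.13-fold) and the stress cytokine Gdf15 (4.77-fold). The log2 ratio of Fkbp5 after PBS was 0.61 in female-called cells but 2.35 in male-called ones. The female value rests on 53 cells under AngII/PE.

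Read by group, MHC class II genes had 7 of 8 members at least 1.5-fold lower after PBS (median -2.10) and 8 of 9 after carboplatin (-2.19). The shares over all compared genes were 9.18% higher and 8.45% lower after PBS, and 10.0% and 9.09% after carboplatin. The member that was not lower was the protease Ctss, at 1.38 and 1.41 times. In the other C1q-positive cells the medians were -1.12 and -1.39, so the class II genes were lower there as well.

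Lipid-associated genes had 9 of 12 higher in both (0.91 and 1.42), with Fabp5, which carries fatty acids, at 12.4 and 76.9 CPM after PBS and 16.6 and 66.9 CPM after carboplatin. The lipase Lpl was the member that was lower after PBS, at 152 and 62.5 CPM, and stood at 98.5 and 96.9 CPM after carboplatin. Cell cycle genes had 8 of 11 and 12 of 16 higher (0.93 and 1.05), with the mitotic gene Birc5 at 1.68 and 18.4 CPM after PBS and Mki67 at 8.58 and 30.2 CPM. In the other C1q-positive cells their medians were 0.01 and 0.16. Whether that difference between cell classes holds was not tested.

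The resident programme had 1 of 19 higher and 6 lower after PBS (-0.21) and 4 of 18 higher and 3 lower after carboplatin (0.04). Ednrb (109 and 25.6 CPM after PBS), Hpgd (657 and 318 CPM) and the lectin Clec10a (113 and 43.0 CPM) were lower, and the scavenger receptor Stab1 was higher (624 and 1055 CPM after PBS, 576 and 900 CPM after carboplatin). Mrc1 and F13a1 kept ratios of 0.849 to 0.907. General macrophage genes had 4 of 12 and 5 of 12 higher (0.23 and 0.44), among them Ms4a7 (312 and 1076 CPM after PBS) and the efferocytosis receptor Mertk (246 and 437 CPM).

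Efferocytosis genes had 7 of 20 higher and 5 lower after PBS (0.40) and 7 and 3 after carboplatin (0.24), with Clec4n at 98.1 and 271 CPM and Cd36 at 375 and 164 CPM after PBS. Iron and haem genes had 3 of 16 higher and 4 lower (0.08), and 6 and 3 (0.18). Slc40a1 was at 42.4 and 79.7 CPM after PBS and 21.1 and 63.9 CPM after carboplatin, and Tfrc was lower in both. Interferon genes had 6 of 24 higher and 1 lower (0.32), and 13 and none (0.65), with Irf7 at 27.3 and 81.3 CPM after PBS and 43.3 and 149 CPM after carboplatin.

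Transcription factors had 1 of 22 higher and 4 lower after PBS (-0.04), with Klf2 at 1001 and 375 CPM, and 3 and 3 after carboplatin (0.05). Immediate-early genes had none of 24 higher and 16 lower (-0.63), and 1 and 8 (-0.33). Monocyte-derived genes had 2 of 5 higher and 2 lower (0.15), and 1 and 3 (-0.77), with fibronectin Fn1 at 9.01 and 51.6 CPM after PBS and Ccr2 at 217 and 111 CPM after carboplatin. Complement genes had 2 of 9 higher and 1 lower in both (0.19 and 0.27). Growth factor genes had 4 of 13 higher and 4 lower (-0.03), and 5 and 2 of 12 (0.41). Chemokine genes had 4 of 17 higher and 2 lower (0.09), and 7 and 2 of 18 (0.38), with Cxcl13 lower in both. The p53 list stayed at 0.02 in both, with 1 of 23 and 3 of 24 higher and 2 lower in each.

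**Figure D5:**
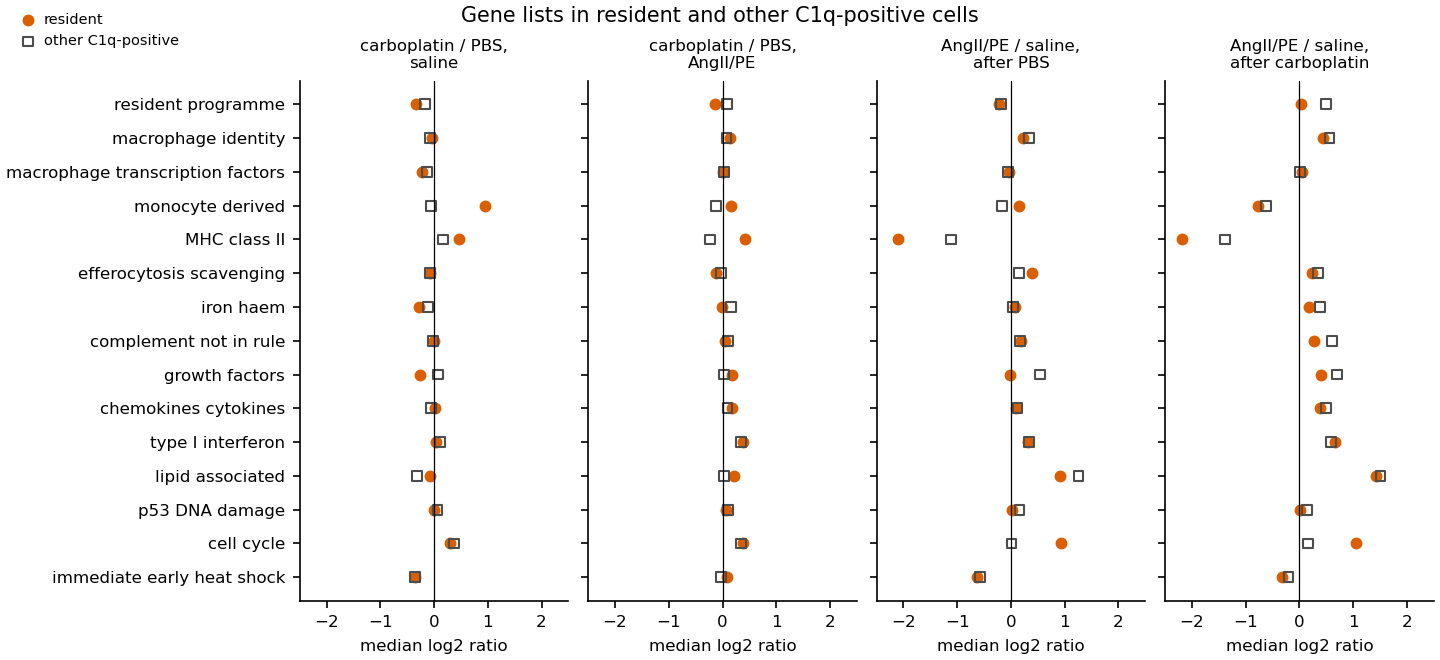
Median log2 ratio of each of the 15 gene lists in the 4 comparisons, in resident macrophages (orange circles) and in the other C1q-positive cells (open squares). MHC class II genes are lowest under AngII/PE (-2.10 and -2.19 in resident cells), lipid-associated and cell cycle genes are highest there, and most lists lie within 0.5 of 0 in the carboplatin comparisons.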

How the data were processed

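The deposited files hold raw counts, whole-number UMIs per gene and cell barcode, made with Cell Ranger 7.1.0 per the file headers; the labels' protocols name version 3, the mm10 transcriptome, 3′ kit v3.1 and Seurat 3.2.3, and the submitters' processing notes Seurat version 4. Barcodes with a mitochondrial share under 10%, under 30000 UMIs and more than 500 but fewer than 7000 genes were kept, the authors' own limits per the labels. The files held 27968 barcodes and kept 17312, where the labels state 38066 and 17438.

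Counts were summed over resident cells and divided by their total (CPM, UMIs per 1000000), so scaling rests on all resident RNA. Genes were compared where they averaged 10 CPM or more, which 8546 to 8608 of 32285 genes reached. Ratios of CPM have exact conditional binomial intervals, shares exact Clopper-Pearson intervals and share ratios log-scale intervals, at 95%. A count of 0 allows 3 counts of the total. Levels of genes are not divided by length, so they compare a gene across samples, not genes with each other. No doublet caller was run; cells with at least 2 UMIs of each of 2 markers of another cell type were left out as an alternative. Endothelial-like cells had at least 4 of 12 endothelial markers and less C1q than the limit. Sex was called per cell from sex-linked genes.

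Per comparison, the text names the 10 highest and 10 lowest CPM ratios among genes that averaged 20 CPM or more, a UMI in at least 5% of resident cells of the higher library and at most 20% of UMIs in 1 cell. Rule markers, C1q, sex-linked, mitochondrial, ribosomal and unnamed genes, markers of other cells, and genes over 5 times higher in endothelial, B, fibroblast or cardiomyocyte-like cells could not be named. The members and gene lists were chosen with earlier results of these data known. Functions that compute ratios and intervals were tested on simulated data. Alternatives changed the marker number, depth, markers, C1q limit, cell filters, sex, scaling (edgeR's TMM, median of ratios), weighting of cells and the filter on low genes. Python 3.11.15, numpy 2.4.6, scipy 1.17.1, pandas 2.3.3, matplotlib 3.10.9, R 4.3.3 and edgeR 4.0.16 were used. Gene positions are from GENCODE M21.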

Additional observations from a re-analysis of the deposited data

Results flagged for a closer look

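Among the listed genes, Cd55 and Lpl had opposite directions in the carboplatin comparisons. Cd55, which protects cells from complement, had a log2 ratio of carboplatin to PBS of 1.00 under saline (8.67 and 17.4 CPM) and -1.20 under AngII/PE (3.72 and 1.62 CPM, below the level at which genes were compared). Lpl had -0.62 under saline (152 and 98.5 CPM) and 0.63 under AngII/PE (62.5 and 96.9 CPM). The difference between pumps was not tested.

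Some barcodes outside the filters also met the rule for resident macrophages, and whether they are single cells was not tested. The rule was met by 302 of 2600 such barcodes for PBS with saline, 326 of 3565 for carboplatin with saline, 69 of 2148 for PBS with AngII/PE and 160 of 2343 for carboplatin with AngII/PE. Of these, 163, 214, 41 and 133 were over the limit on UMIs or genes, 140, 116, 28 and 27 over the mitochondrial limit, and 23, 13, 0 and 0 under the gene limit. Timd4 was found in 57.6%, 8.59%, 17.4% and 3.75% of them, at medians of 30982.5, 34101, 30616 and 35935.5 UMIs, close to the order seen in the kept cells.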

How the results depend on the processing

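With 1 library a group, no value has a biological error, and depth, sex mix and the threshold on markers set the limits. No paired analysis was possible because each group has 1 library and no test between groups was made. Of 48 share ratios recomputed under alternatives, 26 moved by less than their interval. The share ratio of carboplatin to PBS under saline (0.568) was 0.701 with at least 2 markers, 0.446 with at least 4, 0.497 at 5000 UMIs, 0.340 at 2000 and 0.616 at a C1q limit of 30. That under AngII/PE (1.43) was 1.16 with at least 4 markers, 0.872 at 2000 UMIs, a change of direction, 2.10 in female-called cells and 1.08 in male-called ones. AngII/PE to saline after PBS (0.166) gave 0.265, 0.121, 0.119 and 0.113 for the first 4 settings in that order, 0.138 without Cd163 in the rule, 0.116 in female-called cells and 0.190 in male-called ones. After carboplatin (0.418) it gave 0.553, 0.316, 0.313 and 0.291, 0.360 at the C1q limit of 30 and 0.359 in male-called cells.

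The counts of genes at least 2-fold higher changed by over 1.5 times as follows. AngII/PE after PBS (191): 332 in female-called cells, 346 in male-called cells, 1491 with no filter on low genes and 56 at 50 CPM. AngII/PE after carboplatin (194): 1192 with no filter and 64 at 50 CPM. Carboplatin under AngII/PE (24): 50 with at least 4 markers, 43 at 5000 UMIs, 38 at a mitochondrial limit of 5%, 116 in female-called cells, 569 with no filter and 7 at 50 CPM. Carboplatin under saline (33): 54 with at least 4 markers, 50 at 5000 UMIs, 142 in male-called cells, 1101 with no filter and 5 at 50 CPM. For genes at least 2-fold lower, no filter and 50 CPM gave 1382 and 92 for AngII/PE after PBS (240), 1986 and 85 after carboplatin (228), 1237 and 6 for carboplatin under AngII/PE (56) and 1234 and 17 under saline (84). Carboplatin under AngII/PE also gave 93 with at least 4 markers, 110 at 5000 UMIs and 233 in female-called cells, and under saline 175 in male-called cells. A looser filter tests more genes with few UMIs, and fewer cells widen counting error; the other causes were not tested.

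Among 1022 list medians 7 reversed. The monocyte-derived list was 0.43 for AngII/PE after carboplatin and -0.29 for carboplatin under saline with no filter. For carboplatin under AngII/PE, the class II list was -0.31 in male-called cells, the interferon list -0.12 in female-called cells, and the cell cycle list -0.0599 with at least 4 markers, -0.10 at 5000 UMIs and -0.10 in female-called cells. Gbp2 in that comparison was -0.39 in male-called cells, the only reversal of a ratio past 2-fold among 1848 values of single genes; smaller marker ratios that turned over all C1q-positive cells stand with the markers. The cause of these was not tested. Other scaling moved the median of all genes by under 0.1 on the log2 scale.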
